A study of Mus musculus with 9 samples.

Results

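The proteasome is the barrel-shaped protease that degrades ubiquitin-tagged proteins, and its subunit genes are described here in iNKT1 cells from 3 mouse tissues. The genes are those of the deposited table whose mouse symbol begins with Psma, Psmb, Psmc, Psmd, Psme or Psmg. There are 46 of them among 14004 genes. Of these, 45 encode a subunit, an activator or an assembly chaperone, and Psmc3ip carries the letters without being a subunit. Psmb9, the third immune catalytic subunit, and Psmb11, Psma8 and Psme3ip1 were not analysed here.

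iNKT cells (invariant natural killer T cells) recognise lipids shown by CD1d, and the iNKT1 subset is defined by T-bet, the product of Tbx21. RNA-seq was made from iNKT1 cells of the thymus, liver and spleen, with 3 libraries of each tissue. All 9 libraries came from untreated C57BL/6 mice of the genotype Tbx21CreTg;Rosa26-LSL-YFP+/+, so every group carried a Cre transgene under Tbx21 control and a YFP reporter that Cre switches on. Neither an age, a sex nor a sorting gate is given in the sources used here. The comparisons ask how these cells differ between the thymus, where they mature, and the 2 peripheral tissues, and between liver and spleen.

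The core particle (20S) is a stack of rings in which alpha subunits form the gate and beta subunits hold the protease sites. The regulatory particle (19S) sits on the gate, binds ubiquitin chains and unfolds the substrate with a ring of ATPases. Cells of the immune system replace the constitutive catalytic subunits, encoded by Psmb5, Psmb6 and Psmb7, with immune ones, encoded by Psmb8, Psmb9 and Psmb10, whose genes interferon-gamma induces and whose products change the peptides made for MHC class I.

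Promoter sequences are shown for catalytic genes that carry the letters of a motif reported here. RefSeq promoters of build GRCm38.p6 were matched for 39 of the 46 genes, and matches to 2 motifs are given, on both strands of the 250 bases before the start. TGACNNNGC, the core of the antioxidant response element bound by NFE2L1 and NFE2L2, was present in 5 of the 39 (12.8%: Psmb5, Psmb6, Psmc6, Psmd12 and Psmd9) in 11.5% of all promoters and in 14.1% of those of genes in the deposited table. GAAA followed by any 2 bases and GAAA again, the interferon-stimulated response element bound by IRF factors, was present in 3 (7.69%: Psmb3, Psmd4 and Psmd9) against 3.46% of all promoters and 3.27% of those of genes in the table. The matches in catalytic subunit genes are printed below for 30 bases each, on the strand of the gene, with the motif in capitals. They lie at chr14:54618023-54618052 on the minus strand (Psmb5) and chr11:70525327-70525356 on the plus strand (Psmb6). The first letter of the motif stood 47 bases before the RefSeq start of Psmb5 and 9 before that of Psmb6. The gene positions given further below are those of GENCODE, whose starts for these genes differ.
Psmb5: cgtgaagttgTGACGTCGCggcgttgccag
Psmb6: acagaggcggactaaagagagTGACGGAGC
A match describes letters and not binding, which was not measured.

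The values are the authors' normalised read counts, which are scaled per library and are not divided by gene length. Reads recovered from the steps of the low values came to 18506598 to 39568081 per library, except for liver replicate 3 with 3901891. All recovered reads are approximate, those of liver replicate 3 most. Its low values lay on steps with an offset of 1.05, against -0.085 (spleen replicate 3) to 0.059 (thymus replicate 3) in the others. The 46 genes held 0.208% to 0.315% of a library's total. All 8 iNKT1 markers (Tbx21, Il2rb, Cd3e, Cd3d, Zbtb16, Klrb1c, Cxcr3 and Xcl1) had reads in every library, and their summed value was 90164 to 113310 in thymus, 126834 to 145360 in liver and 86310 to 105075 in spleen. Of 7 hepatocyte markers, 6 are in the table, and their summed value was 109.9 to 868 in thymus, 1390 to 1717 in liver and 0.525 to 40.5 in spleen, with Apoa1, Apoa2 and Fgb at 0 in all spleen libraries. Alb made up most of the liver sums, at 1288, 1588 and 1172 in replicates 1, 2 and 3. Trf went the other way, at 110, 598 and 205 in thymus against 43.5, 7.69 and 19.3 in liver. B cell markers (4 of 6 in the table) and myeloid markers (6 of 7) had their highest sums in spleen replicate 1, at 2122 and 3575. The part of these cell types in the values below was not tested. In the replicate 2 library of each tissue Xist was at least 84543, with no more than 21 reads over 4 Y-linked genes. Thymus replicate 3 had both Xist (16531) and Y-linked reads (7016), as well as Rag1, a gene of immature thymocytes, at 486 where no other library exceeded 0.815. Dntt of the same list was also highest in this library, at 11.3 where no other library exceeded 0.631. Cd8b1 and Cd4 did not follow. Cd8b1 was at 28.9 against 40.9 in liver replicate 1, and Cd4 at 985, its lowest value of all.

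No proteasome gene passed the threshold of an adjusted p under 0.05 in any comparison of tissues (limma-trend on log2(value + 1) over 13309 genes, Benjamini-Hochberg adjustment, two-sided). Of all genes tested, 0.323% passed in liver against thymus, 0.398% in spleen against thymus, 0.015% in liver against spleen and 0.346% in the F-test of any tissue difference. The lowest adjusted p of a proteasome gene was 0.225 (Psmb7), 0.235 (Psmd10), 1.0 and 0.322 (Psmd10) in these 4 tests (limma). DESeq2 and edgeR's quasi-likelihood test on the recovered reads also gave 0 in each. Their own calls among the 13309 genes differed from those of limma. In liver against thymus, spleen against thymus and liver against spleen DESeq2 called 451, 513 and 22 genes, and edgeR 22, 37 and 2. The design text calls the replicates independent, but no label ties a library to an animal, so the p-values measure the spread between these libraries.

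At an unadjusted p under 0.05, 4 of the 46 genes differed between liver and thymus (Psmb7, Psmd10, Psmd13 and Psmg3, all higher in liver), where 11.6% of all genes did and 7.72% were higher in liver. In spleen against thymus there were 3 (Psmd10 and Psmd13 higher in spleen, Psmc5 lower), against 11.7% of all genes, 7.56% higher and 4.13% lower. In liver against spleen there were 0, against 3.03%, and in the F-test there were 4 (Psmd10, Psmb7, Psmd13 and Psmc5), against 9.95%. edgeR gave 4, 4, 0 and 1 such genes in these tests and DESeq2 gave 4, 7, 1 and 5. These counts rest on few libraries and on the scaling, and the shares of all genes under the same tools and alternatives are not given here. The count in liver against thymus was 9 without thymus replicate 3 and 2 without liver replicate 2 or liver replicate 3. In spleen against thymus it was 8 without thymus replicate 2, 6 without thymus replicate 3 and 5 without spleen replicate 2. With equal library totals or quantile normalization it was also 8. In the F-test it was 7 without thymus replicate 3 and 2 without liver replicate 2 or liver replicate 3. The calls among all genes moved too. In liver against thymus 43 genes had an adjusted p under 0.05 (limma), and 155 had without thymus replicate 3.

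The family's median log2 fold change of (value + 1) was 0.38 in liver against thymus and 0.35 in spleen against thymus. The medians of all genes tested were 0.29 and 0.33, so these fold changes are to be read against that shift. In liver against spleen the medians were -0.00049 for the family and -0.02 for all genes. Under edgeR's scaling the family medians were 0.17 and 0.09 in the thymus comparisons, and those of all genes were -0.02 and 0.03. The family's medians in the thymus comparisons stayed above 0 under each scaling tried. Without thymus replicate 1, however, the family's median in liver against thymus was -0.0039 and that of all genes 0.17. The fold change was above 0 for 32 of 46 genes in liver against thymus (59.9% of all genes), for 33 in spleen against thymus (61.2%) and for 23 in liver against spleen (48.9%). Both thymus comparisons share the thymus libraries.

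**Figure D1:**
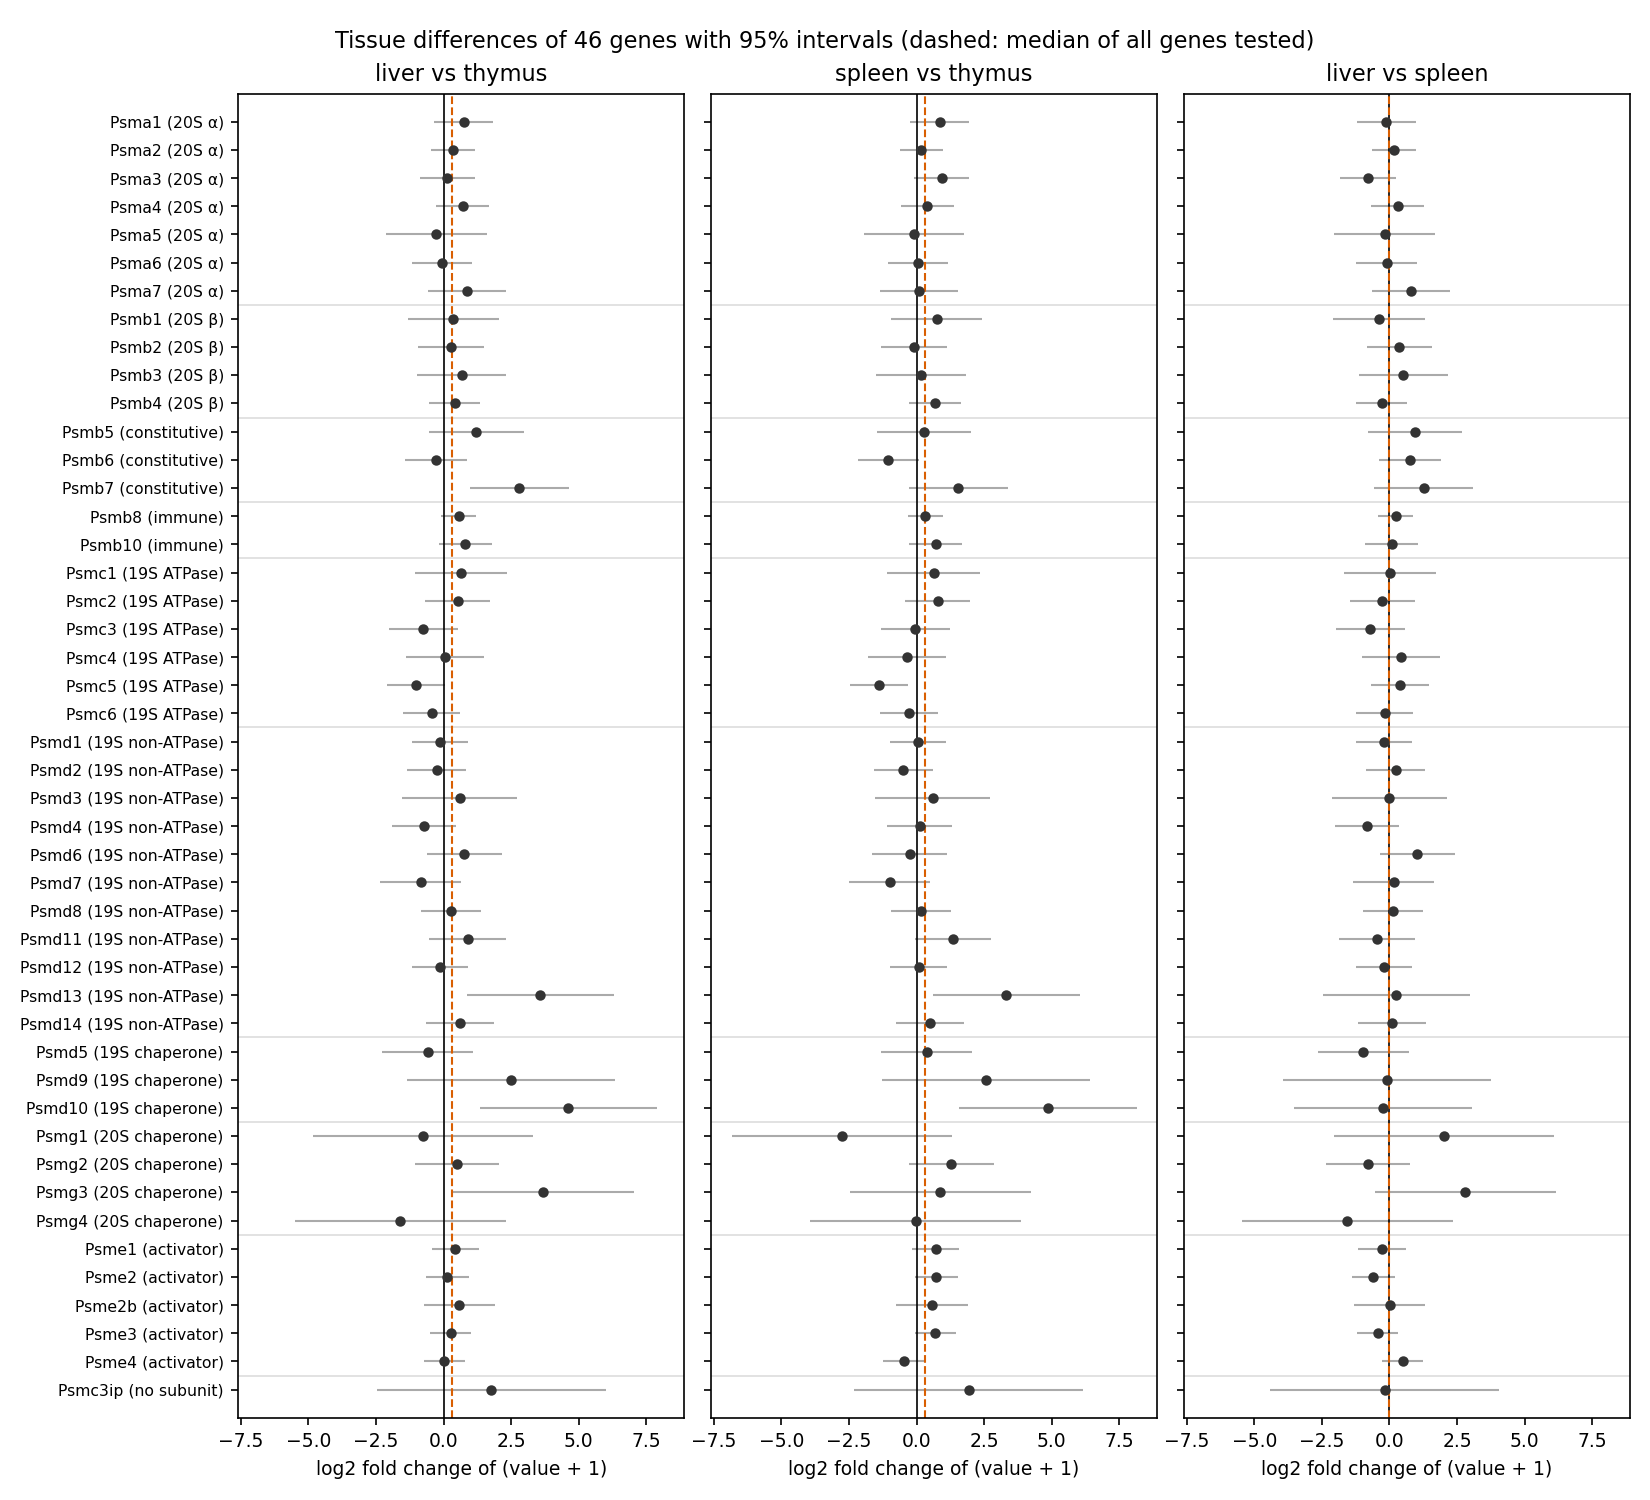
Each point is the log2 fold change of (value + 1) of a proteasome gene between 2 tissues, from a fit over all 9 libraries, and the line through it is the 95% interval. Genes are in rows by role, the black line marks 0 and the dashed line the median of all genes tested. The interval excludes 0 for 4 genes in the first panel (Psmd10, Psmg3, Psmd13 and Psmb7, the points farthest to the right), for 3 in the second and for 0 in the third.

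Among the catalytic genes, Psmb7 and Psmb8 had higher values in every liver library than in every thymus library, and Psmb6 had lower values in every spleen library than in every thymus library, though none of these differences passed the adjusted threshold. Psmb7 (chr2:38588036-38644087, minus strand) encodes the trypsin-like subunit and was at 44.9, 541 and 187 in thymus replicates 1, 2 and 3, at 1098, 1070 and 1361 in liver and at 556, 387 and 529 in spleen. Every liver value lay above every thymus and spleen value, whereas thymus and spleen overlapped. In liver against thymus the log2 fold change was 2.81 (95% interval 0.97 to 4.64, adjusted p = 0.225, limma), and without thymus replicate 1 it was 1.87. Part of this gene cannot be assigned with certainty, as 11.8% of its exon bases overlap exons of Nek6 on the opposite strand and the strand setting of the counting is not stated.

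Psmb5 (chr14:54614119-54618022, minus strand) encodes the chymotrypsin-like subunit and was at 204, 175 and 1588 in thymus, 816, 873 and 999 in liver and 567, 431 and 405 in spleen. Thymus replicate 3 had the highest value of all 9 libraries and the other thymus replicates the lowest values. Liver values all exceeded spleen values, with a log2 fold change of 0.95 (95% interval -0.80 to 2.69), and the intervals of all 3 contrasts included 0. Psmb6 (chr11:70525367-70527858, plus strand) encodes the caspase-like subunit and was at 1244, 1325 and 1047 in thymus, 1114, 1241 and 685 in liver and 663, 428 and 699.7 in spleen. Its thymus values all lay above its spleen values, and liver replicate 3 fell within the spleen range. In spleen against thymus Psmb6 had a log2 fold change of -1.04 (95% interval -2.18 to 0.11, adjusted p = 0.468, limma).

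Psmb8 (chr17:34197721-34201454, plus strand) is the immune counterpart of Psmb5 and was at 4371, 3645 and 5562 in thymus, 6562, 5843 and 7285 in liver and 6324, 3959 and 6987 in spleen. All liver values lay above all thymus values, and spleen replicate 2 lay within the thymus range. Between liver and thymus the log2 fold change of Psmb8 was 0.55 (95% interval -0.09 to 1.20, adjusted p = 0.491, limma). Of its exon bases, 14.7% overlap the gene model Gm20496 on the opposite strand. Psmb10 (chr8:105935735-105938444, minus strand) is the immune counterpart of Psmb7 and was at 1768, 725 and 939 in thymus, 1930, 1759 and 1884 in liver and 1711, 1463 and 2127 in spleen. Thymus replicates 2 and 3 had its lowest values, and thymus replicate 1 lay within the range of the other tissues. Its log2 fold changes were 0.80 (95% interval -0.17 to 1.78) in liver and 0.71 (-0.26 to 1.69) in spleen against thymus.

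Divided by the length of each gene's exons, Psmb8 had the highest mean of the 5 catalytic genes in every tissue, although in thymus replicate 3 Psmb5 was higher (1766 against 1645 per kilobase). Its mean was 1339 ± 286 normalised reads per kilobase in thymus, 1941 ± 213 in liver and 1703 ± 471 in spleen (SD, n = 3). Psmb10 was at 671 ± 323, 1089 ± 51.6 and 1036 ± 197 per kilobase in the same order of tissues. Psmb5 stood per kilobase at 729 ± 898, 996 ± 104 and 520.1 ± 97.2, and its libraries overlapped with those of Psmb10 in thymus and liver but not in spleen. Psmb6 was at 644 ± 76.5, 541 ± 155 and 319 ± 78.9 per kilobase, and Psmb7 was the lowest at 75.3 ± 74.7, 344 ± 47.0 and 143 ± 26.6. Its rank in liver rests on its length of 3421 exon bases. Before division Psmb7 had the highest liver mean of the constitutive genes (1176, against 1013 for Psmb6 and 896 for Psmb5). Lengths and gene positions are those of GENCODE vM21 (GRCm38, the assembly of mm10), with exons joined over transcripts, which may not be the models the authors counted on.

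The ratio of immune to constitutive catalytic transcripts was described within each library, as the log2 of Psmb8 and Psmb10 summed over Psmb5, Psmb6 and Psmb7 summed. A ratio within a library does not depend on how that library was scaled. It was 2.04, 1.10 and 1.20 in thymus replicates 1, 2 and 3, 1.49, 1.26 and 1.59 in liver and 2.17, 2.12 and 2.48 in spleen. Every spleen library lay above every liver and thymus library, although thymus replicate 1 came within 0.1 of the lowest spleen library. Tissue means were 1.45 ± 0.52 in thymus, 1.44 ± 0.17 in liver and 2.26 ± 0.19 in spleen (SD, n = 3). On the linear scale the immune sum was 2.14 to 4.11 times the constitutive sum in thymus, 2.39 to 3.01 times in liver and 4.35 to 5.58 times in spleen. These multiples are not per length (Psmb8 has 3381 exon bases and Psmb5 899), so only their differences between libraries are to be read. This score was built from the family's own genes, so it is a description and no test was made of it.

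The parts of that ratio moved differently. The constitutive sum was 1493, 2041 and 2822 in thymus, 3027, 3184 and 3045 in liver and 1787, 1245 and 1634 in spleen, and every liver value lay above every value of the other tissues. The immune sum was 4370 to 6501 in thymus, 7602 to 9169 in liver and 5422 to 9114 in spleen, with spleen spanning most of the range. Formed as the mean of the log2 ratios Psmb8 over Psmb5 and Psmb10 over Psmb7, the difference of spleen and thymus turned from 0.81 to -0.39, and that of liver and thymus went from -0.003 to -1.34. Psmb8 over Psmb5 was 21.4, 20.9 and 3.50 in thymus, 8.04, 6.69 and 7.30 in liver and 11.1, 9.19 and 17.3 in spleen. Psmb10 over Psmb7 was 39.4, 1.34 and 5.03 in thymus, 1.76, 1.64 and 1.38 in liver and 3.08, 3.78 and 4.02 in spleen. Both pair ratios were higher in every spleen library than in every liver library, and the thymus libraries spread across both.

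**Figure D2:**
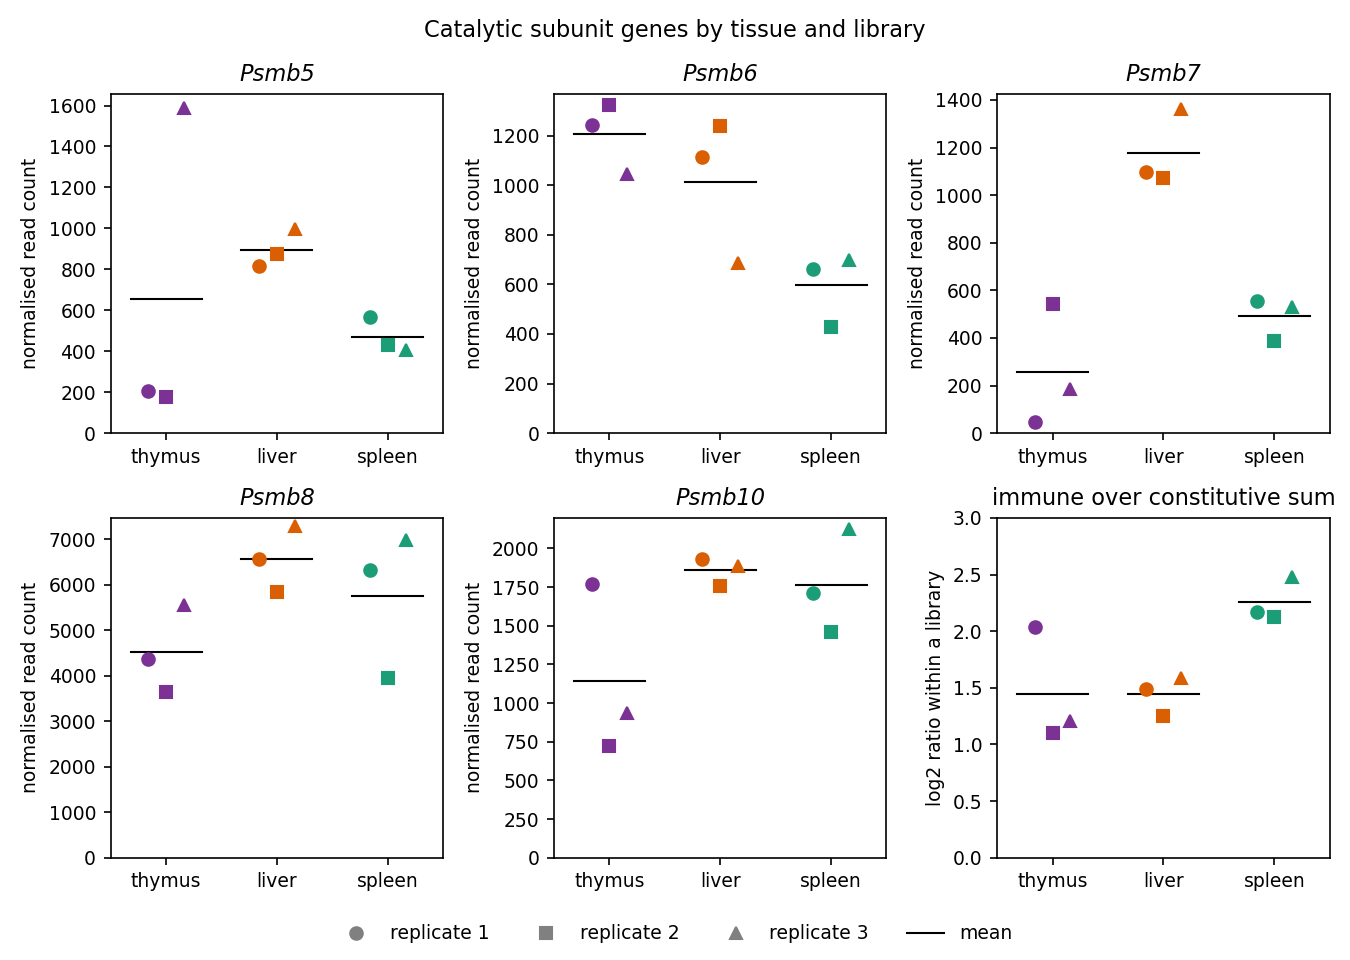
The first 5 panels plot the authors' normalised read count of a catalytic gene in each library, by tissue, with a marker for each replicate number and a line at the mean. The last panel plots the log2 ratio of immune to constitutive sums within each library, where the spleen libraries (2.12 to 2.48) lie above the liver libraries (1.26 to 1.59) and the thymus libraries run from 1.10 to 2.04.

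The 7 alpha subunit genes, which form the outer rings and the gate, had no member with an unadjusted p under 0.05 in a comparison of tissues. Their log2 fold changes of (value + 1) ran from -0.27 to 0.88 in liver against thymus, from -0.09 to 0.93 in spleen against thymus and from -0.79 to 0.78 in liver against spleen. Psma3 had the smallest F-test p of the group (0.147, adjusted 0.650, limma). It was at 819.5, 1003 and 1018 in thymus, 897, 985 and 1254 in liver and 2017, 1184 and 2426 in spleen, so that spleen values all lay above thymus values and overlapped with liver. Psma6 had the largest F-test p (0.978). It was at 1581, 2224 and 874 in thymus, 1293, 1163 and 1793 in liver and 2090, 806 and 2011 in spleen, with wide overlap of the 3 tissues.

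Among the 4 beta subunit genes without a protease site (Psmb1, Psmb2, Psmb3 and Psmb4), fold changes ran from 0.26 to 0.68 in liver against thymus and from -0.11 to 0.75 in spleen against thymus on the log2 scale. Psmb4 was at 1424, 1523 and 1050 in thymus, 1784, 1588 and 1865 in liver and 3635, 1900 and 1407 in spleen. Liver values of Psmb4 lay above its thymus values without overlap, while spleen spanned both, and its F-test p was 0.325. Psmb2 was at 746, 3602 and 1311 in thymus, 2745, 1465 and 1515 in liver and 1343, 975 and 2155 in spleen. The thymus replicates of Psmb2 held both its highest and its lowest value, and its F-test p was 0.804.

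The 6 ATPase genes unfold and translocate the substrate, and Psmc5 was the gene of this group that stood out. Psmc5 (chr11:106256154-106263120, plus strand) was at 5381, 3960 and 1651 in thymus, 1744, 1183 and 2059 in liver and 1420, 1685 and 804 in spleen. Thymus replicates 1 and 2 lay above all 7 other libraries, and thymus replicate 3 lay among the liver and spleen values. The log2 fold change of Psmc5 was -1.40 in spleen against thymus (95% interval -2.46 to -0.33, adjusted p = 0.290, limma) and -1.02 in liver against thymus (-2.08 to 0.05, adjusted p = 0.449). Without thymus replicate 1 the former was -1.04, and without thymus replicate 3 it was -1.89. Psmc4 had the largest F-test p of the group (0.805), at 479, 622 and 721 in thymus, 369, 810.2 and 806 in liver and 792, 323 and 396 in spleen. Its tissues overlapped widely. The summed ATPase value was 5989 to 11095 in thymus, 6310 to 7820 in liver and 5439 to 9767 in spleen.

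Of the 11 genes of the lid and the non-ATPase base, Psmd13, which encodes a lid subunit, had the smallest F-test p (0.0235, adjusted 0.408, limma). Psmd13 (chr7:140881968-140898643, plus strand) was at 4.51, 112 and 109 in thymus, 174, 808 and 817 in liver and 391, 585 and 294 in spleen. Every thymus value lay below every liver and spleen value, and thymus replicate 1 rested on 4 reads. The log2 fold change of Psmd13 was 3.57 in liver (95% interval 0.85 to 6.30, adjusted p = 0.299, limma) and 3.32 in spleen (0.59 to 6.04, adjusted p = 0.325) against thymus. Without thymus replicate 1 these were 2.13 and 1.87. Sirt3, on the opposite strand, overlaps 10.1% of its exon bases.

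Psmd11, a lid subunit that contacts the core particle, was at 192, 1477 and 1299 in thymus, 1394, 1301 and 1285 in liver and 2008, 1796 and 1659 in spleen. Spleen values lay above all liver and all thymus values, with a log2 fold change of 1.34 against thymus (95% interval -0.07 to 2.75) and of -0.45 for liver against spleen (-1.86 to 0.96). Psmd1, a large scaffold subunit of the base, had the largest F-test p (0.923), at 1067, 3648 and 2362 in thymus, 1829, 2011 and 1890 in liver and 3330, 1403 and 2204 in spleen. Its liver libraries were close together and lay inside the range of the others. The remaining genes of this group that did not overlap between liver and spleen were Psmd6 (721, 1388 and 999.5 in liver against 455, 475 and 549 in spleen) and Psmd4 (442, 778 and 915 against 1941, 983 and 935), named here after their values were seen. Psmd4 encodes a ubiquitin receptor.

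Assembly chaperones bring subunits together and leave the finished particle and several of their genes had few or no reads in some libraries. Psmd10 (chrX:140948429-140956728, minus strand), the gene of the base chaperone gankyrin, was at 77.4, 0.0275 and 145 in thymus, 955, 258 and 708 in liver and 749, 1066 and 356 in spleen. The value of 0.0275 stands for 0 reads of 27706136 in thymus replicate 2, which allows a value of up to 3.50 (3 reads, counting error only). All thymus values lay below all liver and spleen values, which overlapped each other. The log2 fold change of Psmd10 was 4.62 in liver (95% interval 1.33 to 7.91, adjusted p = 0.266, limma) and 4.85 in spleen (1.57 to 8.14, adjusted p = 0.235) against thymus. Without thymus replicate 2 these fold changes were 2.39 and 2.62. 

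Psmg3 (chr5:139823592-139826885, minus strand) encodes a chaperone of the alpha ring and was at 6.75, 31.3 and 79.0 in thymus, 432, 414 and 241 in liver and 270.0, 28.1 and 14.9 in spleen. Liver values were all above thymus values, and in spleen replicate 1 lay in the liver range while replicates 2 and 3 lay in the thymus range. Psmg3 had a log2 fold change of 3.69 in liver against thymus (95% interval 0.35 to 7.04, adjusted p = 0.384, limma), and without thymus replicate 1 it was 2.79 with an unadjusted p of 0.0827. The gene model Gm26938 on the same strand overlaps 9.68% of its exon bases. Psmg4, another core-particle chaperone gene, had the largest F-test p of the chaperones (0.622). It was at 469.6, 40.5 and 77.8 in thymus, 0.846, 134 and 223 in liver and 181, 70.1 and 109 in spleen, with its highest value in thymus replicate 1 and its lowest, 1 read, in liver replicate 1. Psmg1, named outside the rule given below, pairs with Psmg2 in an early chaperone. It was at 24.7, 1098 and 183 in thymus, 17.4, 148 and 393 in liver and 1.44, 92.1 and 70.7 in spleen, with overlap of the tissues. Psmd5, named after its values were seen, did not overlap between liver (224, 583 and 618) and spleen (977, 980.4 and 631). Psmd9 and Psmc3ip had 0 reads of 25024424 in thymus replicate 1, which allows a value of up to 3.39 (3 reads), and had reads in all other libraries.

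Activators open the gate of the core particle without ubiquitin. Psme1 and Psme2 encode the chains of PA28, whose genes interferon-gamma induces, and had the highest values of the family per kilobase by the mean over the 9 libraries. By tissue mean, however, Psmc5 was the highest in thymus (2628 per kilobase, against 2406 for Psme1 and 1594 for Psme2), and in liver Psmb8 (1941) lay above Psme2 (1746). Psme1 was at 8162, 5640 and 2141 in thymus, 4825, 7237 and 6923 in liver and 9323, 5651 and 8119 in spleen, with overlap of all tissues and the lowest value in thymus replicate 3. Psme2 was at 2507, 3795 and 2131 in thymus, 2410, 2832 and 3997 in liver and 6591, 3860 and 3691 in spleen. Thymus and spleen overlapped by 1 thymus library, and the log2 fold change of Psme2 in spleen against thymus was 0.74 (95% interval -0.06 to 1.53, adjusted p = 0.458, limma). Psme2b is a close copy of Psme2, so reads can be split between them, and it was at 322 to 986 over the 9 libraries.

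Psme3 encodes the nuclear activator PA28-gamma and was at 2419, 2552 and 2227 in thymus, 3946, 2297 and 2678 in liver and 4554, 2849 and 4536 in spleen. Spleen values lay above all thymus values, and the thymus libraries were close together. The log2 fold change in spleen against thymus was 0.70 (95% interval -0.06 to 1.46, adjusted p = 0.462, limma). Psme4 encodes PA200 and was at 3245, 4077 and 4193 in thymus, 5896, 2796 and 3555 in liver and 2657, 3423 and 2294 in spleen. Its tissues overlapped, and the liver held both a value above and a value below every thymus value.

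**Figure D3:**
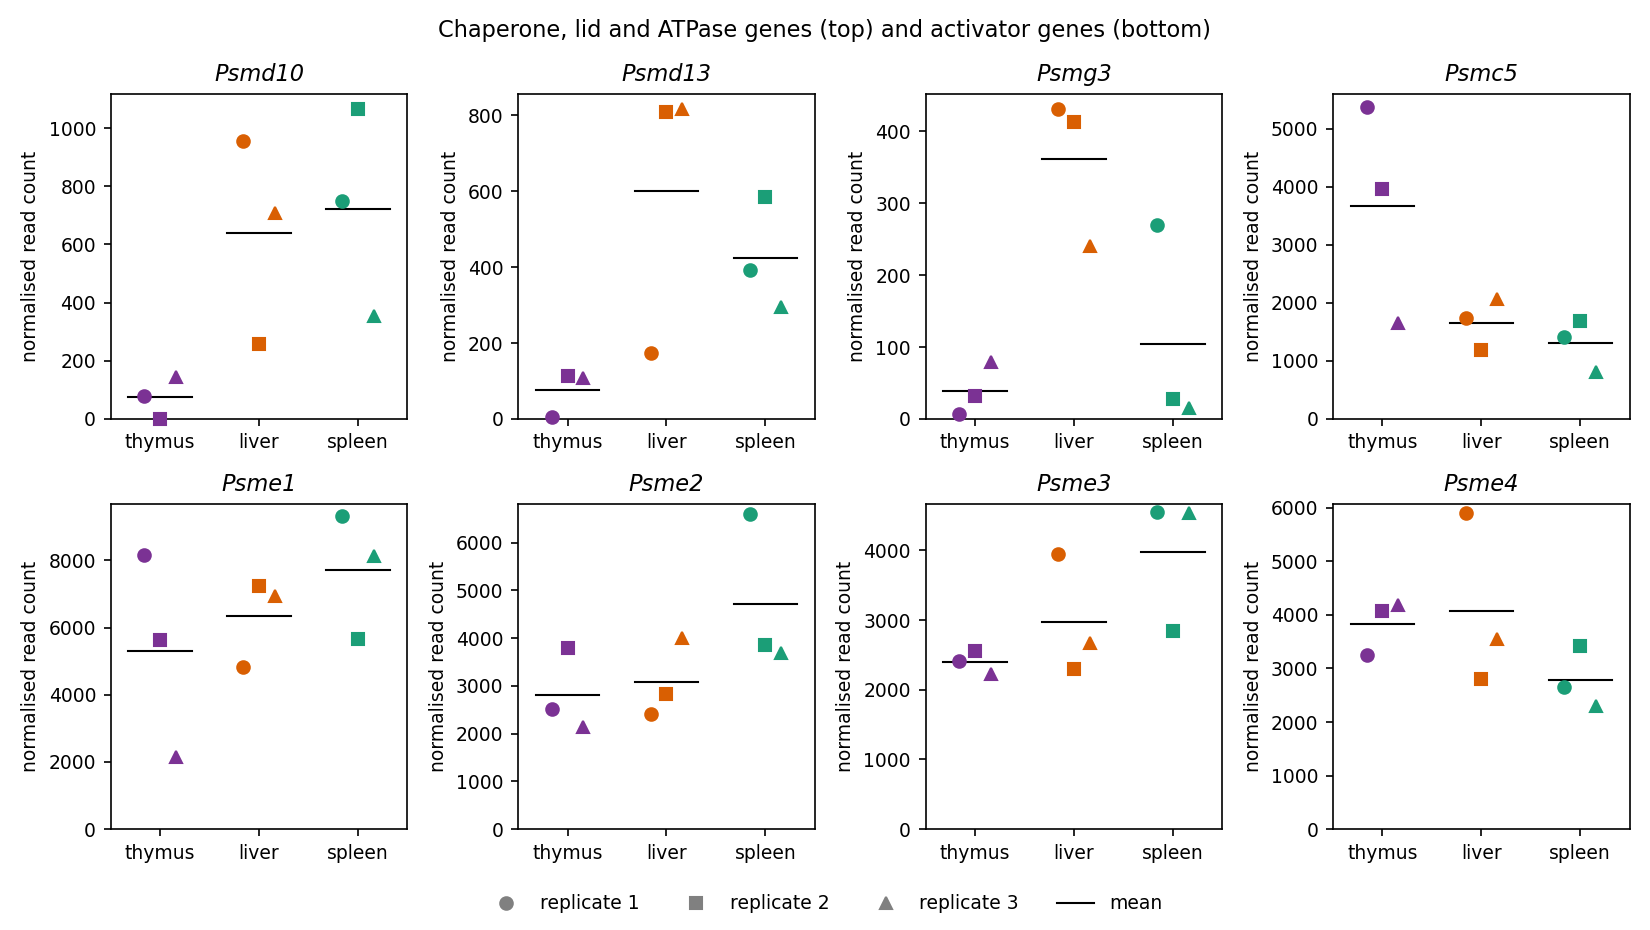
Authors' normalised read counts of 8 genes in each library, by tissue, with a marker for each replicate number and a line at the mean. In the top row Psmd10 and Psmd13 lie lower in all thymus libraries than in all liver and spleen libraries, and Psmc5 is high in thymus replicates 1 and 2. In the bottom row the activator genes overlap between tissues, apart from Psme3 between thymus and spleen.

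Across the family, groups that did not overlap were about as common as among all genes. Between liver and thymus, 6 of 46 genes did not overlap, all higher in liver (Psmb4, Psmb7, Psmb8, Psmd10, Psmd13 and Psmg3), against 15.3% of all genes, 9.61% higher and 5.73% lower in liver. Between spleen and thymus 6 did not overlap, where 15.3% of all genes did not. Of these, 5 were higher in spleen (Psma3, Psmd10, Psmd11, Psmd13 and Psme3, against 9.29% of all genes) and Psmb6 was lower (against 6.03%). Between liver and spleen 6 did not overlap, against 12.7% of all genes. Of these, 3 were higher in liver (Psmb5, Psmb7 and Psmd6, against 5.97%) and 3 lower (Psmd4, Psmd5 and Psmd11, against 6.77%).

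The lowest of the 9 values belonged to a thymus library for 34 of the 46 genes (73.9%), against 48.6% of all genes, and the highest for 20 (43.5%), against 46.1%. Thymus replicate 1 alone held the lowest value of 17 genes, thymus replicate 2 of 10 and thymus replicate 3 of 7, where they held that of 23.7%, 17.7% and 7.24% of all genes. For the lowest value these shares of all genes are not a like measure. A gene without reads could stand above 0 in thymus and at 0 elsewhere. Cd79b was at 0.021, 0.027 and 0.044 in thymus and at 0 in liver replicate 2. Such genes had their lowest value outside thymus, whereas nearly all of the 46 genes had reads in every library. The excess is therefore not to be read as one of the family. Spread within a tissue was widest in thymus. The median SD of log2(value + 1) between replicates was 0.92 in thymus, 0.42 in liver and 0.48 in spleen for the family, and 1.34, 0.76 and 0.77 for all genes tested. The SD was larger in thymus than in both other tissues for 29 of the 46 genes (63.0%), against 60.3% of all genes. In bulk RNA, fewer cells that express a gene and less RNA per cell cannot be told apart.

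**Figure D4:**
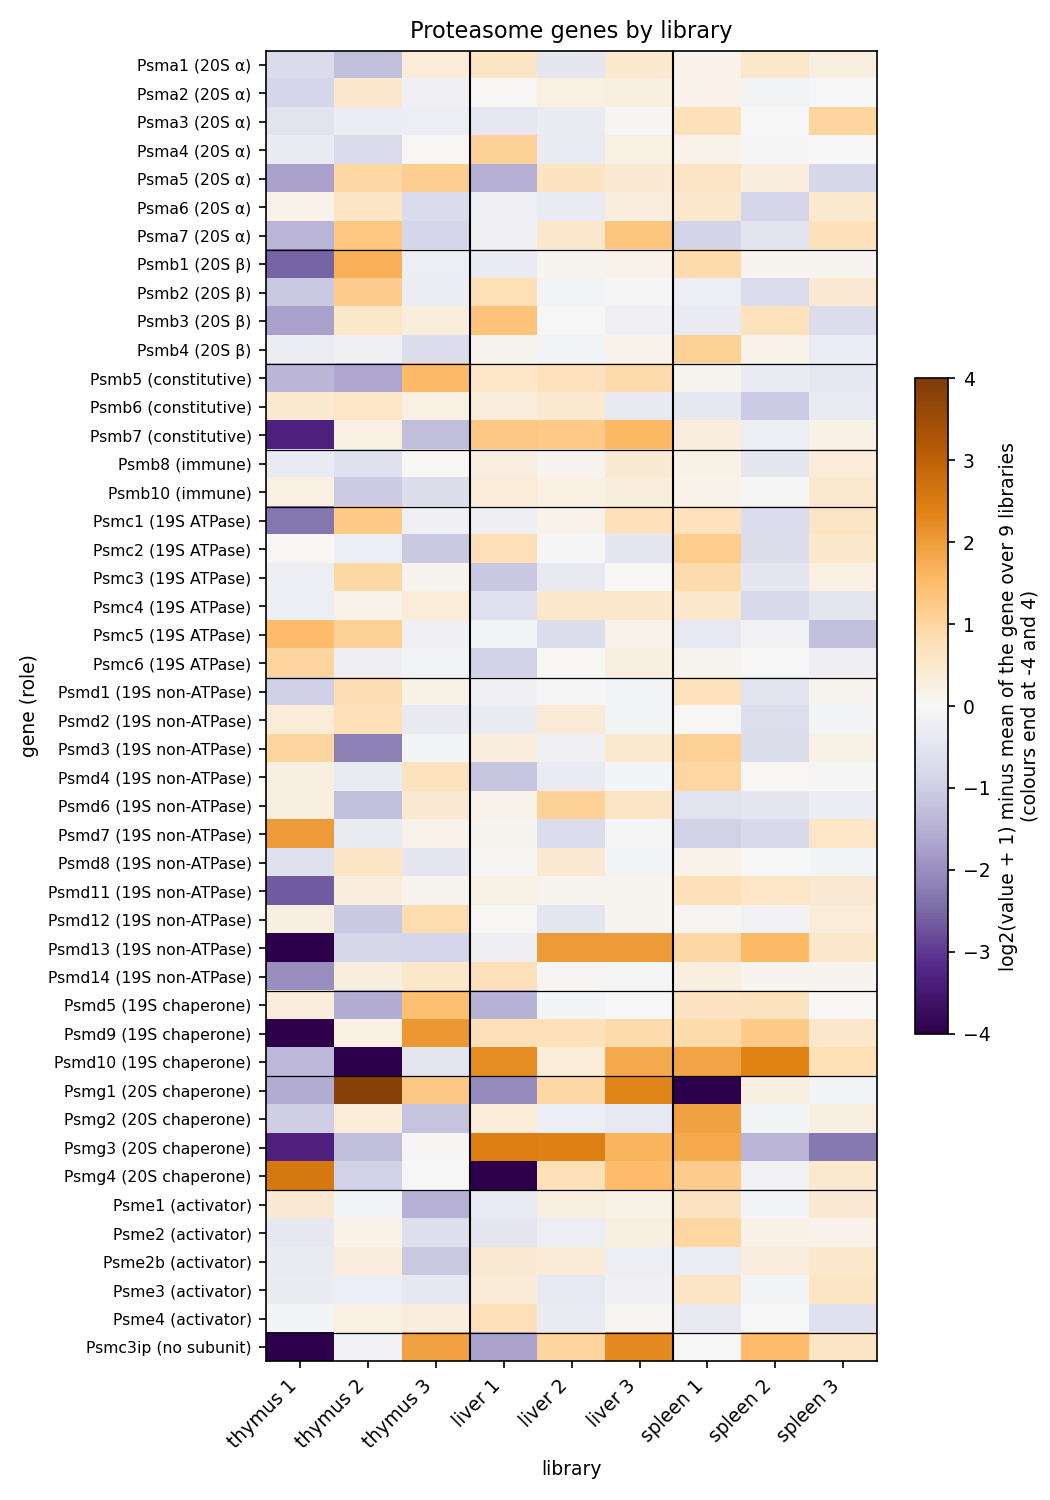
Each row is a proteasome gene, grouped by role, and each column a library. The colour is log2(value + 1) minus the gene's mean over the 9 libraries, with the scale ending at -4 and 4. Cells at or near the low end of the scale include Psmd13, Psmd9 and Psmc3ip in thymus replicate 1, Psmd10 in thymus replicate 2, Psmg4 in liver replicate 1 and Psmg1 in spleen replicate 1.

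Transcript values were also summed by particle. The 19S sum over the 20S sum was 1.33, 0.790 and 0.870 in thymus, 0.597, 0.713 and 0.624 in liver and 0.833, 0.742 and 0.671 in spleen. All thymus libraries lay above all liver libraries, and spleen overlapped with both. Psmc5 alone added 5381, 3960 and 1651 to the thymus 19S sums and 1744, 1183 and 2059 to those of liver. The ratio without Psmc5 is not given, so the separation is not to be read as one of the whole particle. Thymus replicate 1 had the lowest 20S sum (17118, against 22024 to 32620 in the other libraries), and its 19S sum of 22746 lay inside the range of the others (16337 to 24934). These sums are not per length and carry no test.

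Genes that work with the proteasome were given the same test, and none of them passed the adjusted threshold in a comparison of tissues by limma, edgeR or DESeq2. The counts and medians of this list and the 3 that follow are to be read against all genes tested. Of those, 59.9% had a fold change above 0 in liver against thymus and 61.2% in spleen against thymus, with medians of 0.29 and 0.33. Unadjusted p-values under 0.05 were found for 11.6%, 11.7% and, in liver against spleen, 3.03% of all genes. Of 11 proteasome-associated genes tested, 7 had a fold change above 0 in liver and 8 in spleen against thymus, with medians of 0.47 and 0.33. At an unadjusted p under 0.05 (limma), 1 of them (Pomp) differed in liver against thymus, and 0 in the other comparisons. Pomp, the maturation factor of the core particle, was at 781, 1703 and 1482 in thymus, 2641, 2253 and 2931 in liver and 2678, 1375 and 2407 in spleen, and liver did not overlap with thymus (log2 fold change 1.05, adjusted p = 0.383, limma). Usp14, a deubiquitinase of the 19S, was at 472 to 1232 in thymus, 1093 to 1841 in liver and 1137 to 1758 in spleen.

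Of 14 genes of ubiquitin, its activation and shuttling, 9 had a fold change above 0 in each thymus comparison, with medians of 0.09 for liver and 0.42 for spleen. At an unadjusted p under 0.05 there were 2 in liver against thymus (Uba1 and Ubqln1), 1 in spleen against thymus (Ufd1) and 1 in liver against spleen (Nploc4). Uba1, the main ubiquitin-activating enzyme, was at 4558, 5792 and 5994 in thymus, 10698, 7505 and 8764 in liver and 7144, 8220 and 7467 in spleen, so that all thymus values lay below the others. Its log2 fold change in liver against thymus was 0.72 (adjusted p = 0.294, limma). Nploc4, a cofactor of the VCP segregase, was at 668, 1057 and 799 in thymus, 355, 725 and 752 in liver and 4401, 1375 and 1245 in spleen, with all spleen values the highest (liver against spleen -1.76 on the log2 scale, adjusted p = 1.0, limma).

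Of 8 genes that control subunit transcription, 5 had a fold change above 0 in liver and 4 in spleen against thymus, with medians of 0.14 and 0.05. At an unadjusted p under 0.05 there were 0 in each thymus comparison and 1 in liver against spleen (Ifngr1). Nfe2l1, the factor that raises subunit genes when proteasome activity falls, was at 85.2, 1854 and 2136 in thymus, 2066, 1125 and 1569 in liver and 2011, 1456 and 1893 in spleen. Only thymus replicate 1 stood apart for this gene. Ifngr1, a chain of the interferon-gamma receptor, was at 4363, 7962 and 10129 in thymus, 13973, 8621 and 7051 in liver and 4878, 3145 and 7038 in spleen. Its liver values lay above its spleen values, the nearest being 7051 and 7038.

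Of 9 genes that load peptides on MHC class I, 7 had a fold change above 0 in each thymus comparison, with medians of 0.46 for liver and 0.35 for spleen. Unadjusted p-values under 0.05 were found for 2 in liver against thymus (B2m and Canx), 1 in spleen against thymus (Tap2) and 1 in liver against spleen (B2m). B2m, the light chain of MHC class I, was at 112060, 111837 and 104546 in thymus, 129669, 171040 and 170195 in liver and 110298, 105493 and 149797 in spleen. Liver lay above thymus without overlap (log2 fold change 0.51, adjusted p = 0.202, limma). Tap2, a chain of the peptide transporter, was at 92.0, 964 and 484 in thymus, 865, 614 and 879 in liver and 1495, 1315 and 1250 in spleen. All spleen values of Tap2 lay above the other 6, with a log2 fold change of 1.94 against thymus (adjusted p = 0.333, limma).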

How the data were processed

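The deposited table gives 1 value per gene and library. Its unit is the authors' normalised read count, treated as a signal because the deposited values are not whole numbers. Trimmomatic 0.33, TopHat2 2.1.0, HTSeq 0.6.1, edgeR and build mm10 are named per the submitters' processing notes, while the annotation, the strand setting and the scaling are not given in the sources used here. Columns were matched to libraries by tissue and replicate number, and 1 thymus column has a prefix that the labels do not explain. Symbols matched 13359 of 14004 gene IDs.

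Reads were recovered from the equal steps of the low values. Among 14492 values no higher than 20 reads, 95.5% came within 0.1 of a whole number (74.4% in liver replicate 3, 98.2% to 100% in the others). The reads of liver replicate 3, whose steps had an offset of 1.05, are therefore the most approximate. Offsets in the others ran from -0.085 to 0.059, and their reads are approximate to a lesser degree. No molecular identifiers are mentioned, so read counts and floors cover counting error only.

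The main test was limma-trend (limma 3.58.1, R 4.3.3) on log2(value + 1), over the 13309 genes that reached a value of 1 in 3 or more libraries. All 46 members passed that filter. The added 1 shrinks the change of low genes. Yet for Psmd10 in liver against thymus the log2 fold change was 4.62, against 3.10 by edgeR and DESeq2. Psmd9, with 0 reads in thymus replicate 1, had 2.48 in that comparison, although the ratio of its tissue means was 0.963. The fit took all 9 libraries, with tissue as its factor, and adjustment was over all genes tested. The planned test for raw counts was replaced by its stated fallback for normalised values. edgeR 4.0.16 and DESeq2 1.42.0 were run on recovered reads. The ratio had been planned with Psmb9 among the immune genes and was formed without it.

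The members and lists were chosen with earlier results of these data known. Named are the catalytic and activator genes, the 8 members with the smallest F-test p, the members with the smallest and largest F-test p in each role group, and up to 4 genes of each other list. Values of Psmd4, Psmd5, Psmd6, Psmd9, Psmg1, Psme2b and Psmc3ip were given outside this rule. Exon lengths, positions and overlaps came from GENCODE vM21. Alternatives changed the tool, scaling, filter, pseudocount, samples fitted, weights, replicate block, handling of libraries low in Y-linked reads, and each library in turn. The scripts were tested on simulated data. A motif searched in the promoters is not reported here.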

Additional observations from a re-analysis of the deposited data

How the results depend on the processing

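No member passed the threshold under any of 87 alternatives to the 4 member counts. The 7 fold changes with an unadjusted p under 0.05 kept their direction in all 154 alternatives, and none passed the adjusted threshold, though DESeq2 gave no p for Psmg3. For 5 of the 7 the unadjusted p exceeded 0.05 in at least 1 alternative, with a highest value of 0.0687 for Psmc5, 0.0557 for Psmd10 in spleen, 0.0618 and 0.0710 for Psmd13 and 0.112 for Psmg3. Their adjusted p ran from 0.0582 (Psmc5 in spleen against thymus) to 0.662 (Psmg3). The libraries were not treated as paired, since no label says that a number marks a shared animal or day and deviations of same-numbered libraries correlated at only -0.0007 to 0.089 over 9 pairs (-0.087 to 0.048 over 18 pairs of unlike number). As a hint from the data, in 13 of 18 cases a library correlated best with its own number in another tissue, and each replicate 2 library was low in Y-linked reads. With a replicate block 0 members passed in each test, as without it. The log2 ratio of immune to constitutive genes differed by -0.003 in liver and 0.81 in spleen against thymus, and by -0.81 in liver against spleen. As the mean of the 2 pair ratios the first difference was -1.34 and the second -0.39, in a form that leaves out Psmb6 and weights both pairs equally. The cause of the change was not tested. Leaving out each library gave -0.18 to 0.29, 0.64 to 1.11 and -0.89 to -0.70. Liver replicate 3, with 3901891 reads, limits low genes most.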
